A study of Mus musculus with 12 samples.

Results

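This account follows 32 genes of PPAR-alpha signalling and fatty acid oxidation in mouse duodenum, chosen by name as members of that pathway: every probe on the array whose accession mapped to one of them was collected, and the brightest probe stood for the gene. All 32 had a probe, 44 in all, among 22905 genes named on the array, and all 32 were well above background on the 3 arrays of at least 1 group. RNA of whole duodenum was hybridised to 12 one-colour arrays, 3 from each of 4 groups of male mice that were 7 weeks old at the start: Akp3-/- mice (KO) given IIAEK, a peptide of 5 amino acids named by its 1-letter code, KO mice given vehicle, wild-type mice (WT) given IIAEK, and WT mice given vehicle. Akp3 encodes intestinal alkaline phosphatase. The peptide was dosed orally for 14 days, at 600 mg/kg daily. Vehicle was sodium carboxymethylcellulose at 5 g/L, and all mice were fasted for 8 h before the duodenum was taken. The source labels of the IIAEK samples state longer times than the 14 days of their titles. The sources used here give neither the strain nor the way the knockout was made. Levels below are log2 processed intensities minus the 75th percentile of that array, so a gene at 0 is as bright as the 75th percentile, and a level of one gene is not set against that of another.

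PPAR-alpha is a nuclear receptor that is activated by fatty acids and their derivatives. Paired with a retinoid X receptor, it binds a direct repeat of the half-site AGGTCA spaced by 1 base and switches on genes for the uptake, activation and oxidation of fatty acids. Fatty acids are activated to acyl-CoA, carried into the mitochondrion as carnitine esters and shortened in a cycle of dehydrogenation, hydration, oxidation and thiolysis, while peroxisomes run a parallel cycle for very long chains. In the small intestine PPAR-alpha and PPAR-delta respond to dietary fat, and in fasting many of these genes are raised in liver and gut.

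Akp3 itself separated the genotypes, at -4.90 to -3.80 on the KO arrays, against 1.05 to 2.72 on the WT arrays. The 75th percentile of intensity lay between 195 and 465, and 55.9% to 64.0% of probes were well above background. All 14 enterocyte markers tested were well above background on all 12 arrays. Replicate 3 of WT vehicle stood apart in liver genes: Alb, which encodes serum albumin, was at 1.94 there and between -4.33 and -1.75 on every other array. The 7 of 10 hepatocyte markers that passed the filter averaged -1.35 to -0.47 on the KO IIAEK arrays, -1.19 to -0.63 on the KO vehicle arrays, -1.14 to -0.93 on the WT IIAEK arrays, and -1.20, -0.75 and 0.61 on the WT vehicle arrays. The hepatocyte markers Ahsg, Fgb and Hpx were well above background on 3, 1 and 3 arrays. Circadian clock genes, 11 past the filter, also stood apart on replicate 3 of WT vehicle, averaging 0.43 there and -0.73 to -0.15 elsewhere. Among them Dbp was at 4.25 there and at most 2.45 elsewhere, and Arntl at -0.97 there and -0.23 to 0.62 elsewhere. Some results below are therefore also given without that array, but not all. Replicate 3 of KO IIAEK had the lowest enterocyte villus level (5.38, elsewhere 5.70 to 6.12) and the highest smooth muscle level (3.28, elsewhere 1.53 to 2.69). Mucous cell genes of stomach and Brunner's gland averaged 3.81 to 5.30 on 6 arrays, namely all of WT vehicle, replicate 3 of KO IIAEK, replicate 1 of KO vehicle and replicate 3 of WT IIAEK, and -2.26 to -0.75 on the others. The 21 pancreatic genes averaged 1.13 on replicate 1 of WT vehicle and 6.02 to 8.38 elsewhere. The arrays lay on 2 slides, each with arrays of all 4 groups, and each slide was scanned in its own session. Slide 2 held replicate 3 of every group and replicate 2 of KO vehicle, and slide 1 held the rest. In KO IIAEK, WT IIAEK and WT vehicle, replicate 3 was thus the only slide 2 array. In these groups the parts of the slide and of that single array cannot be told apart.

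None of the 32 genes passed the test in any comparison. The test was limma across 26107 features with Benjamini-Hochberg adjustment, two-sided, with a call at an adjusted p under 0.05. Over the 7 comparisons the smallest adjusted p of a member was between 0.993 and 1. Calls were rare among all features too. For KO against WT, 0.00766% of features were called under vehicle, 0.00766% under IIAEK and 0.0192% on average over both treatments. For IIAEK against vehicle, 0% were called in KO, 0% in WT, 0% on average over both genotypes and 0% for the difference between the genotypes. At an unadjusted p under 0.05 these last 4 held 213 higher and 286 lower features in KO, 444 and 375 in WT, 314 and 453 on average, and 154 and 244 for the difference. A member's fold change had a median standard error of 0.23 between 2 groups, and a median 95% interval of 0.50 to either side. The interval lay within 1 log2 unit of no change for 24 of 32 members in KO against WT under vehicle, 24 under IIAEK, 26 for IIAEK against vehicle in KO and 26 in WT. The labels do not say more of the arrays than that they are separate samples, so p-values measure the spread between these samples. In RNA of a whole tissue, fewer cells of a type and less RNA per cell cannot be told apart.

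Single arrays stood out among the members. Replicate 3 of WT vehicle had the highest of all 12 levels for 12 of the 32 genes and the highest of its group for 24. Replicate 3 of KO IIAEK had the lowest of all 12 levels for 12 genes and the lowest of its group for 20. The members' mean level was 3.64, 3.74 and 3.37 on the KO IIAEK arrays, 3.66, 3.56 and 3.78 on the KO vehicle arrays, 3.82, 3.73 and 3.61 on the WT IIAEK arrays, and 3.40, 3.49 and 3.87 on the WT vehicle arrays. The 4 groups overlapped in that mean, and WT vehicle alone spanned nearly the whole range. The median SD of a member within a group was 0.37 in KO IIAEK, 0.17 in KO vehicle, 0.28 in WT IIAEK and 0.26 in WT vehicle. Over all features it was 0.34, 0.21, 0.27 and 0.20 in the same groups.

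**Figure D1:**
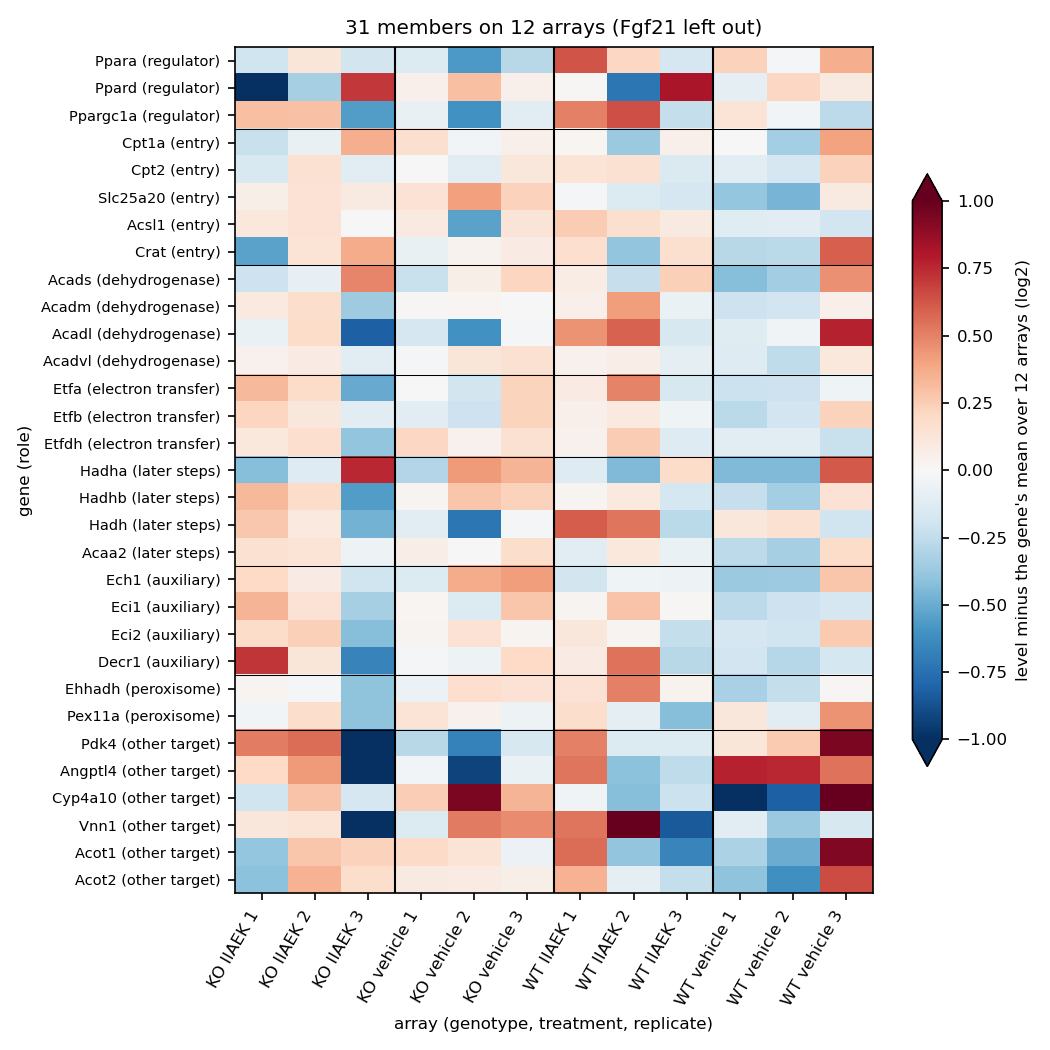
Level of 31 members (Fgf21, near background, is left out) on the 12 arrays as the difference from the gene's mean over the 12 arrays, in log2 units. Rows are genes in order of their role and columns are arrays, and differences beyond 1 take the end colour. Replicate 3 of WT vehicle is high and replicate 3 of KO IIAEK low for many genes, with the highest of all levels for 12 of 32 members on the first of these arrays and the lowest for 12 on the second.

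Under vehicle, KO and WT duodenum differed most, by p, in 3 members: the carnitine carrier Slc25a20, Ppara and the lipase inhibitor Angptl4. Slc25a20 imports acylcarnitines through the inner mitochondrial membrane. Its level was 0.48, 0.74 and 0.56 in KO vehicle, against -0.06, -0.14 and 0.42 in WT vehicle. All 3 KO arrays lay above all 3 WT arrays, although 1 WT array was close. The log2 fold change was 0.52 ± 0.16 (SE), with an unadjusted p of 0.00736 and an adjusted p of 0.993 (limma). Slide 1 alone gave 0.57 and slide 2 alone 0.23, and the value was 0.69 without replicate 3 of WT vehicle (adjusted p 0.274). Under IIAEK, Slc25a20 was at 0.39, 0.48 and 0.42 in KO, against 0.31, 0.19 and 0.16 in WT, again without overlap, with a log2 fold change of 0.21 ± 0.16. Averaged over both treatments the difference was 0.36 ± 0.11 (unadjusted p 0.00778, adjusted p 0.999).

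Ppara, the receptor itself, was at 3.33, 2.89 and 3.19 in KO vehicle, against 3.70, 3.45 and 3.83 in WT vehicle. The KO arrays all lay below the WT arrays, with a log2 fold change of -0.52 ± 0.21 (unadjusted p 0.0286, adjusted p 0.993). Slide 1 alone gave -0.24, slide 2 alone -0.79, and the value was -0.43 without replicate 3 of WT vehicle. Under IIAEK the groups overlapped, at 3.27, 3.59 and 3.29 in KO, against 4.10, 3.68 and 3.30 in WT. Averaged over both treatments Ppara differed by -0.42 ± 0.15 (unadjusted p 0.0159, adjusted p 0.999), and its second probe gave -0.42 with an unadjusted p of 0.0215. Under vehicle alone the second probe gave -0.46, with an unadjusted p of 0.064 (limma). Ppard, which encodes PPAR-delta, spread more within the IIAEK groups than between groups, with 1.96, 2.72 and 3.75 in KO IIAEK, 3.10, 3.35 and 3.10 in KO vehicle, 3.06, 2.32 and 3.86 in WT IIAEK, and 2.96, 3.26 and 3.13 in WT vehicle. Ppargc1a encodes a coactivator of PPAR-alpha and of mitochondrial biogenesis. It was at 3.59, 3.59 and 2.74 in KO IIAEK, 3.22, 2.68 and 3.18 in KO vehicle, 3.80, 3.94 and 3.05 in WT IIAEK, and 3.43, 3.26 and 3.03 in WT vehicle. All 4 groups overlapped, and the average IIAEK effect was 0.32 ± 0.20 (unadjusted p 0.142, adjusted p 1).

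The promoters of Slc25a20 and Ppara are shown because these members had the smallest p under vehicle, in opposite directions. They are the 250 bases before and 50 after the transcription start in RefSeq, build GRCm38.p6, 5′ to 3′ on the + strand, and capitals mark the stretch nearest to the direct repeat AGGTCANAGGTCA where it had at most 2 mismatches.
Slc25a20 (chr9:108661886-108662185): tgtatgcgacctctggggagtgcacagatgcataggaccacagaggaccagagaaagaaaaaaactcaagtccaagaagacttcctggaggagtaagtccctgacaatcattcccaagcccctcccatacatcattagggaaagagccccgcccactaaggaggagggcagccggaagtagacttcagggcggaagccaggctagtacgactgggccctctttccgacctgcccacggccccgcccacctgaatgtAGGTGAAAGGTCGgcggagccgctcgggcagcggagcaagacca
Ppara (chr15:85735526-85735825): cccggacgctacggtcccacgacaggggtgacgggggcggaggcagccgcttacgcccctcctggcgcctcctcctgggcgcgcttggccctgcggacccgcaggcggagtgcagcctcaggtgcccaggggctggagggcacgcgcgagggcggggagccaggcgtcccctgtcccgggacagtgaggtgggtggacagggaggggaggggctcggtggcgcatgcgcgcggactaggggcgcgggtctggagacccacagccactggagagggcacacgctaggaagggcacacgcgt
The Slc25a20 stretch starts 7 bases after the start site, and the Ppara window had no stretch within 2 mismatches. RefSeq promoters were matched for 26 members, 27 promoters in all, and searched on both strands. Of these, 2 held a stretch with at most 2 mismatches, Slc25a20 and Etfa, whose match reads AGGGCAAAGGTAA on the opposite strand. Among all 32851 promoters of the same length 3.86% held one. The half-site AGGTCA, which the full repeat contains, stood in 3 of the 27 (11.1%), against 16.3% of all promoters. A match is a run of letters only, and these windows hold no distant elements.

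Angptl4 encodes a secreted inhibitor of lipoprotein lipase that fasting and fatty acids induce. It was at 4.87, 3.97 and 4.83 in KO vehicle, against 5.67, 5.65 and 5.44 in WT vehicle. The groups did not overlap, and the log2 fold change was -1.03 ± 0.46 (unadjusted p 0.0468, adjusted p 0.993). The value was -0.79 within slide 1, -1.04 within slide 2 and -1.10 without replicate 3 of WT vehicle. In the IIAEK groups it was at 5.10, 5.32 and 3.36 in KO and 5.44, 4.49 and 4.64 in WT. All WT IIAEK arrays lay below all WT vehicle arrays, with 5.44 as the nearest rounded value in both, for a log2 fold change of -0.73 ± 0.46 (adjusted p 0.999). Pdk4, a kinase that shuts off pyruvate dehydrogenase and so spares glucose, followed a like order among the vehicle groups. It was at 2.72, 2.32 and 2.84 in KO vehicle, against 3.12, 3.26 and 3.94 in WT vehicle, with a log2 fold change of -0.81 ± 0.48 (adjusted p 0.993). In KO IIAEK Pdk4 was at 3.51, 3.56 and 1.48, the last on the array that was also lowest in Angptl4. Both are also known targets of the glucocorticoid receptor. The 13 other genes of a glucocorticoid and fasting list averaged 2.10 to 2.65 in KO IIAEK, 2.15 to 2.31 in KO vehicle, 2.04 to 2.76 in WT IIAEK and 2.82 to 3.05 in WT vehicle. All 13 had a fold change below 0 in KO against WT under vehicle, with a median of -0.62, against 0.028 over all features. For 9 the KO arrays all lay below the WT arrays, as for 5.87% of features. That list was chosen with earlier results of these data known, so its direction is no independent support. Its part in the Angptl4 and Pdk4 values was not tested.

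**Figure D2:**
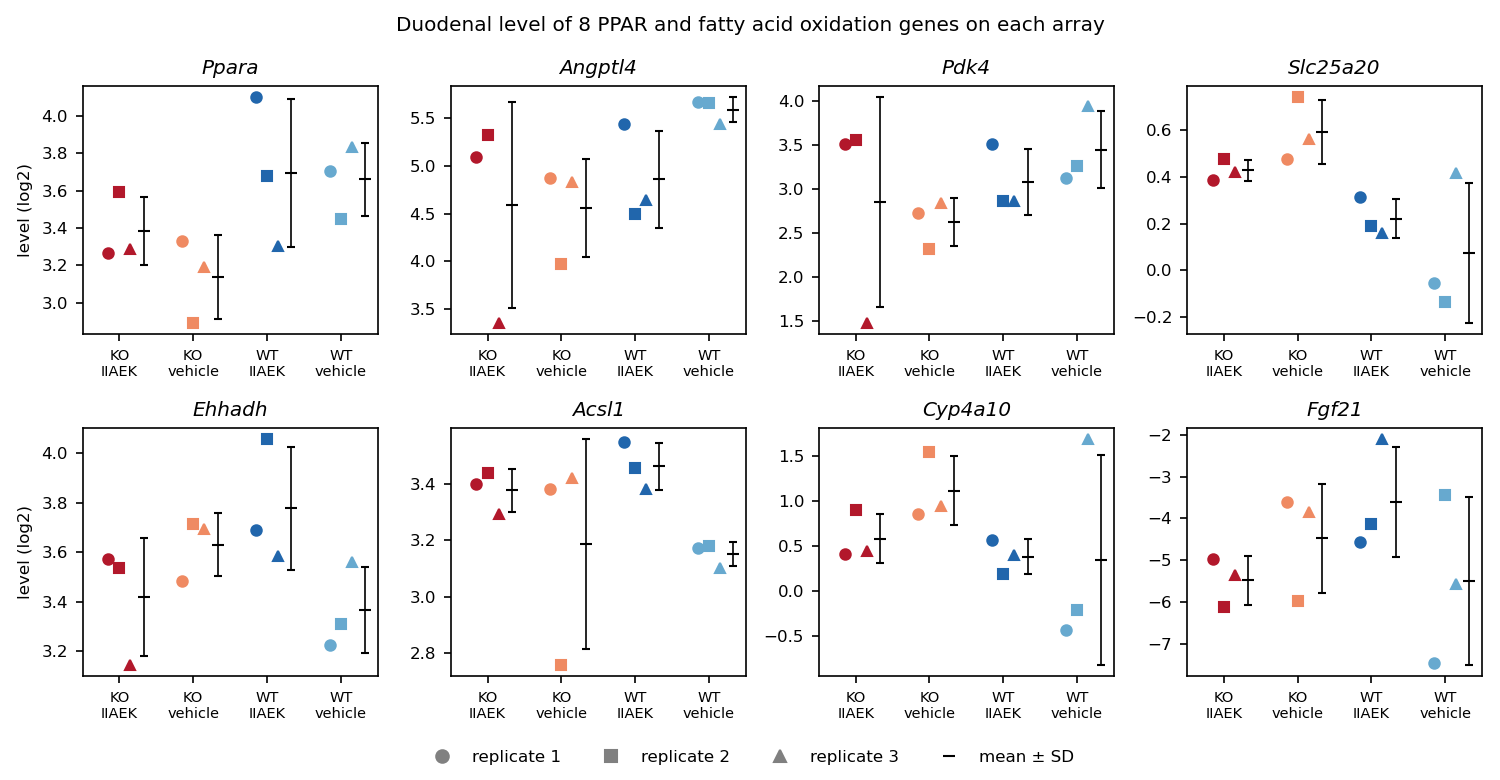
Level of 8 members on each array (log2, the array's 75th percentile at 0), with KO groups left of WT groups and IIAEK left of vehicle. Points are arrays by replicate, and bars give the mean ± SD of 3 arrays. Slc25a20 is higher, and Ppara, Angptl4 and Pdk4 lower, on all 3 KO vehicle arrays than on all 3 WT vehicle arrays, and replicate 3 of KO IIAEK is lowest in Angptl4 (3.36) and Pdk4 (1.48).

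Counting the whole set under vehicle, 24 of 32 members had a fold change above 0 and 8 below, with a median of 0.13. Over all features the median was 0.028, and 54.6% lay above 0. An unadjusted p under 0.05 was found for 1 member on the higher side, where 2.15% of features were, and for 2 on the lower side, where 1.71% were. On every KO array 4 members lay above all WT arrays (Slc25a20, Etfdh, Eci1 and Decr1), against 8.5% of features, and 3 below (Ppara, Angptl4 and Pdk4), against 5.87%. Averaged over both treatments the median was 0.028, and -0.012 to 0.094 when 1 array was left out, with 1 member higher at an unadjusted p under 0.05 (1.37% of features) and 2 lower (1.67%). These 2 were Ppara and Acadl. Acadl, the long-chain acyl-CoA dehydrogenase, was at 3.55, 3.80 and 2.80 in KO IIAEK, 3.45, 3.01 and 3.60 in KO vehicle, 4.07, 4.21 and 3.46 in WT IIAEK, and 3.49, 3.58 and 4.38 in WT vehicle. The genotypes overlapped in both treatments, and the average difference of -0.50 ± 0.22 (unadjusted p 0.0483) was -0.36 without replicate 3 of WT vehicle. The counts at an unadjusted p under 0.05 changed with the levels of stomach-type and pancreatic genes as covariates. On average over both treatments 1 member was then higher and 7 lower, and under vehicle 0 and 4. The share of all features at that p is not given for that fit, so these counts cannot be set against it.

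The enzymes of the oxidation spiral lay mostly on the higher side in KO vehicle. Of the 4 auxiliary enzymes for unsaturated chains, 4 were above 0 with a median of 0.27. All 3 electron transfer genes (Etfa, Etfb and Etfdh) were above 0 with a median of 0.17. Among the later steps of the cycle 3 of 4 were, with a median of 0.23, and among the acyl-CoA dehydrogenases 3 of 4, with a median of 0.13. Etfdh, which hands the electrons to ubiquinone, was at 4.44, 4.50 and 3.94 in KO IIAEK, 4.54, 4.37 and 4.49 in KO vehicle, 4.38, 4.59 and 4.20 in WT IIAEK, and 4.22, 4.22 and 4.11 in WT vehicle. Its fold change under vehicle was 0.28 ± 0.16, with an unadjusted p of 0.108. Genes of oxidative phosphorylation, the respiratory chain and ATP synthase, were above 0 in the same comparison for 18 of 19, with a median of 0.17. The members' median depended on single WT vehicle arrays: it was 0.039 without replicate 1, 0.058 without replicate 2 and 0.26 without replicate 3, with 19, 19 and 26 members above 0. It was 0.022, with 17 above 0, with the levels of stomach-type and pancreatic genes as covariates. Within slide 1 it was 0.21, and within slide 2, where replicate 3 was the WT vehicle array, it was -0.13.

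Cyp4a10, a fatty acid omega-hydroxylase and in liver an inducible PPAR-alpha target, depended on replicate 3 of WT vehicle. It was at 0.41, 0.89 and 0.44 in KO IIAEK, 0.85, 1.55 and 0.94 in KO vehicle, 0.57, 0.18 and 0.39 in WT IIAEK, and -0.44, -0.22 and 1.68 in WT vehicle. That replicate exceeded every other array, and the log2 fold change of KO against WT under vehicle was 0.77 ± 0.45 (adjusted p 0.993). Without that array it was 1.44 (adjusted p 0.117), within slide 1 it was 1.18, and within slide 2 it was -0.44. Its next brightest probe gave 0.59 under vehicle. The dimmest was well above background on 2 of 3 WT vehicle arrays and gave 0.95 (unadjusted p 0.012, limma). That probe gave 0.81 for IIAEK in WT (unadjusted p 0.0259) and -1.25 for the difference between the genotypes (unadjusted p 0.017). It passed the filter only through KO vehicle and WT IIAEK, the groups where it was highest, so these values are no evidence of a difference. Near copies of Cyp4a10 exist in the mouse, so its signal may include theirs. The thioesterases Acot1 and Acot2, also near copies of each other, were likewise highest on that array, Acot1 at 4.10 against 2.85 and 2.68 on the other WT vehicle arrays, and Acot2 at 1.57 against 0.52 and 0.31. Since liver genes and circadian clock genes also stood out there, the Cyp4a10 value without it is given, but not those of Acot1 and Acot2. The part of liver RNA or of clock state was not tested beyond that value.

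For KO against WT under IIAEK, 14 of 32 members were above 0 and 18 below, with a median of -0.055, against -0.011 over all features, and none had an unadjusted p under 0.05. The median had no stable direction. It was -0.078, -0.11 and 0.032 without replicates 1, 2 and 3 of KO IIAEK. Without replicates 1, 2 and 3 of WT IIAEK it was 0.0053, -0.015 and -0.11. Without replicate 3 of WT IIAEK 5 members were lower at an unadjusted p under 0.05, and the median over all features was -0.021. The share of all features lower at that p is not given for that fit, so the 5 cannot be set against it. Slc25a20 lay above WT on every KO array, where 1.65% of features did, and Ehhadh below, where 2.19% did. All 3 regulators were below 0, with a median of -0.29. Fgf21, a fasting hormone that is a PPAR-alpha target in liver, was well above background on 0 of 3 KO IIAEK arrays, 2 of 3 KO vehicle arrays, 3 of 3 WT IIAEK arrays and 1 of 3 WT vehicle arrays, and it passed the filter through WT IIAEK alone, so that its groups being apart there is not counted. It was at -4.97, -6.11 and -5.35 in KO IIAEK, -3.61, -5.97 and -3.85 in KO vehicle, -4.56, -4.14 and -2.11 in WT IIAEK, and -7.46, -3.44 and -5.56 in WT vehicle. With the KO IIAEK signals raised to the lowest level well above background on each array, the bound was 1.97-fold below WT IIAEK (measured means -5.48 and -3.60, adjusted p 1). It leaves out the spread between arrays. As WT IIAEK is the group through which Fgf21 passed the filter, the bound is no evidence of a difference. For the same reason its place among the 18 members below 0 is none. The bound rested on 1 array and was 1.17-fold without replicate 3 of WT IIAEK.

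IIAEK in WT duodenum gave 24 members above 0 and 8 below, with a median of 0.11, against 0.035 over all features, of which 56.3% lay above 0. The 24 include Fgf21, which passed the filter through WT IIAEK alone. Ehhadh, the bifunctional enzyme of peroxisomal oxidation, had the smallest p. It was at 3.57, 3.54 and 3.15 in KO IIAEK, 3.49, 3.71 and 3.69 in KO vehicle, 3.69, 4.06 and 3.58 in WT IIAEK, and 3.23, 3.31 and 3.56 in WT vehicle. The WT groups nearly touched, at 3.58 and 3.56, and the log2 fold change in WT was 0.41 ± 0.17 (unadjusted p 0.0345, adjusted p 0.999). The value was 0.60 within slide 1, 0.023 within slide 2 and 0.51 without replicate 3 of WT vehicle. Ehhadh was the 1 member higher at an unadjusted p under 0.05, as 1.7% of features were. It was also 1 of 3 members (with Acsl1 and Eci1) that lay above vehicle on every WT IIAEK array, as 5.58% of features did, and Angptl4 lay below, as 3.69% did. Acsl1, which activates long-chain fatty acids to acyl-CoA, was at 3.55, 3.46 and 3.38 in WT IIAEK, against 3.17, 3.18 and 3.10 in WT vehicle. Its fold change was 0.31 ± 0.17, with 0.33 within slide 1 and 0.28 within slide 2. In KO it was at 3.40, 3.44 and 3.29 under IIAEK, against 3.38, 2.76 and 3.42 under vehicle, where the groups overlapped, and the average effect over both genotypes was 0.25 ± 0.12 (unadjusted p 0.0559, adjusted p 1).

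By role, all 4 dehydrogenases, all 4 auxiliary enzymes and all 3 electron transfer genes were above 0 in WT under IIAEK, with medians of 0.11, 0.19 and 0.21. Of the 19 oxidative phosphorylation genes all were above 0, with a median of 0.22, and of the 14 enterocyte villus genes 12 were, with a median of 0.16. Their part in the members' values was not tested. The median of the 32 members was 0.036 without replicate 1 of WT vehicle, 0.015 without replicate 2 and 0.27 without replicate 3, with 18, 18 and 28 above 0. With the stomach-type and pancreatic levels as covariates it was 0.019, with 18 above 0. It was 0.32 within slide 1, with 28 above 0, and -0.29 within slide 2, with 7 above 0, so its direction differed between the slides. After quantile normalization it was -0.012, with 15 above 0, against 0.0090 over all features.

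IIAEK in KO duodenum gave 11 members above 0 and 21 below, with a median of -0.040, against -0.0032 over all features. No member had an unadjusted p under 0.05, and none separated the groups. The smallest p was that of Vnn1, a pantetheinase of the enterocyte surface that is a PPAR-alpha target in liver. It was at 0.30, 0.33 and -1.02 in KO IIAEK, 0.06, 0.71 and 0.67 in KO vehicle, 0.73, 1.24 and -0.64 in WT IIAEK, and 0.09, -0.18 and 0.03 in WT vehicle. Both IIAEK groups had a low replicate 3, the only array of each on slide 2. The log2 fold change in KO was -0.61 ± 0.46 (unadjusted p 0.216, adjusted p 1). The median of the members in KO was -0.096 without replicate 1 of KO IIAEK, -0.14 without replicate 2 and 0.015 without replicate 3, with 13, 8 and 16 above 0. It was -0.073 without replicate 2 of KO vehicle and -0.021 without replicate 3. Within slide 1 it was 0.077, with 21 above 0, and within slide 2 -0.30, with 9 above 0. The peroxisomal membrane protein Pex11a, with Acsl1 and Ppargc1a, had the 3 smallest p in the average IIAEK effect. It was at 4.16, 4.36 and 3.79 in KO IIAEK, 4.33, 4.23 and 4.14 in KO vehicle, 4.36, 4.10 and 3.76 in WT IIAEK, and 4.30, 4.08 and 4.63 in WT vehicle. IIAEK and vehicle arrays overlapped in both genotypes, and the average effect was -0.19 ± 0.14 (unadjusted p 0.199).

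**Figure D3:**
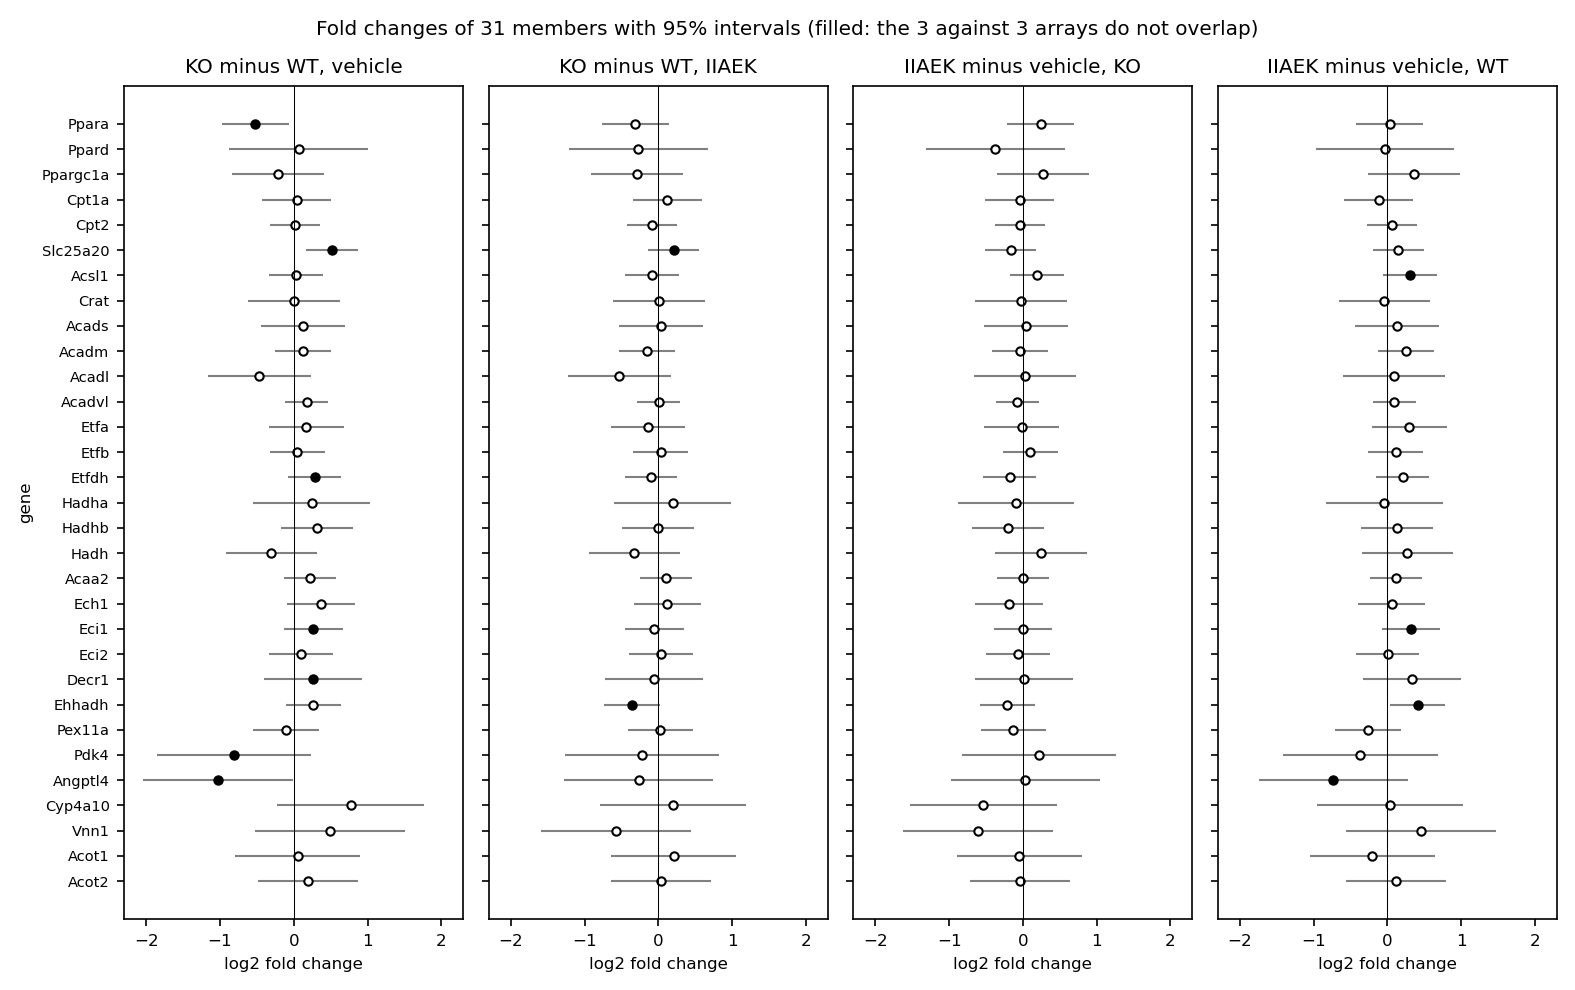
Log2 fold change of 31 members with its 95% interval in the 4 comparisons of 2 groups, KO minus WT on the left and IIAEK minus vehicle on the right. Filled points mark genes whose 3 and 3 arrays do not overlap. Most intervals include 0, as for 29 of 32 members in KO against WT under vehicle and 31 of 32 for IIAEK against vehicle in WT.

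The IIAEK effect was tested for a difference between the genotypes. Of 32 members 7 had a larger effect in KO and 25 a smaller one, with a median difference of -0.12, against -0.042 over all features. The 25 include Fgf21, which passed the filter through WT IIAEK alone. Ehhadh had the smallest p, with a difference of -0.62 ± 0.24 (unadjusted p 0.0253, adjusted p 1), as its fold change was -0.21 in KO and 0.41 in WT. It was the 1 member lower at an unadjusted p under 0.05, as 0.935% of features were, and the difference was -0.53 within slide 1 and -0.58 within slide 2. The median difference ran from -0.34, without replicate 3 of WT vehicle, to -0.069, without replicate 1 of WT IIAEK, with 5 and 12 members above 0. Within slide 1 it was -0.24 and within slide 2 -0.028. The comparisons under vehicle, in WT and between the genotypes share the WT vehicle arrays, so their values are not independent of each other.

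By their brightest probe, the other members had no fold change with an unadjusted p under 0.05 in any of the 7 comparisons: Ppard, Cpt1a, Cpt2, Crat, Acads, Acadm, Acadvl, Etfa, Etfb, Hadha, Hadhb, Hadh, Acaa2, Ech1, Eci1, Eci2, Decr1, Pdk4, Acot1 and Acot2, and among those given above Fgf21, Acsl1, Vnn1, Cyp4a10, Etfdh, Ppargc1a and Pex11a. Cpt1a, the rate-limiting entry enzyme, was at 3.05, 3.19 and 3.64 in KO IIAEK, 3.43, 3.24 and 3.32 in KO vehicle, 3.29, 2.90 and 3.32 in WT IIAEK, and 3.26, 2.93 and 3.67 in WT vehicle. Its fold changes between 2 groups lay between -0.12 and 0.12. Some enzymes moved little over the 12 arrays. Cpt2, which turns acylcarnitines back into acyl-CoA, lay between 4.70 and 5.10, and the very-long-chain dehydrogenase Acadvl between 5.77 and 6.17. Acaa2, the thiolase that ends the cycle, lay between 7.10 and 7.61, and Etfb, a subunit of the electron transfer flavoprotein, between 5.99 and 6.48. Decr1, the dienoyl-CoA reductase for unsaturated chains, ranged from 5.82 to 7.20, and Hadh, the short-chain hydroxyacyl-CoA dehydrogenase, from 5.69 to 7.03. The extremes of Decr1 were both in KO IIAEK, on replicates 3 and 1. Hadha and Hadhb, singled out after their values were seen, encode the subunits of one trifunctional protein. On replicate 3 of KO IIAEK Hadha had its highest level of all arrays, 2.42, while Hadhb had its lowest, 5.44. Over the 4 comparisons Fgf21 aside, fold changes of members ran from -1.03 to 0.77 for KO against WT under vehicle, from -0.57 to 0.21 under IIAEK, from -0.61 to 0.28 for IIAEK against vehicle in KO and from -0.73 to 0.46 in WT.

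Genes of neighbouring pathways were described in the same way. Of 24 peroxisomal oxidation genes 23 passed the filter and none was called. Under IIAEK 21 of them were above 0 in WT, with a median of 0.25, and 14 in KO, with a median of 0.033. Over all features 56.3% and 49.2% were. On slide 1 the list averaged 3.51 and 3.67 in WT IIAEK, against 3.02 and 3.05 in WT vehicle. On slide 2 the order turned, with 3.24 against 3.60. For KO against WT, 15 of the peroxisomal genes were above 0 under vehicle and 4 under IIAEK, against 54.6% and 47.5% of all features. Cat, which encodes catalase, had a fold change of 0.57 ± 0.22 for IIAEK against vehicle in WT (unadjusted p 0.0242, adjusted p 0.999), with overlapping groups. Amacr, a racemase of branched-chain acyl-CoA, had 0.58 ± 0.25 for IIAEK against vehicle in KO (unadjusted p 0.0402), and the thioesterase Acot3 had -0.79 ± 0.34 for KO against WT under vehicle (unadjusted p 0.0385). Of 20 other PPAR targets 18 were above 0 for KO against WT under vehicle, with a median of 0.17, and none was called. This list too turned between the slides. It averaged 2.93 in KO vehicle against 2.51 and 2.68 in WT vehicle on slide 1, and 3.22 and 3.06 against 3.38 on slide 2. Malic enzyme, Me1, was among the 9 below 0 under IIAEK, at -0.67 ± 0.26 (unadjusted p 0.0250, adjusted p 1). Of 28 other mitochondrial and ketone genes 22 were above 0 for KO against WT under vehicle and 8 under IIAEK. Of 19 receptor partners and coregulators 7 and 2 were. The mitochondrial deacetylase Sirt3 had 0.46 ± 0.18 for IIAEK against vehicle in WT (unadjusted p 0.0256).

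**Figure D4:**
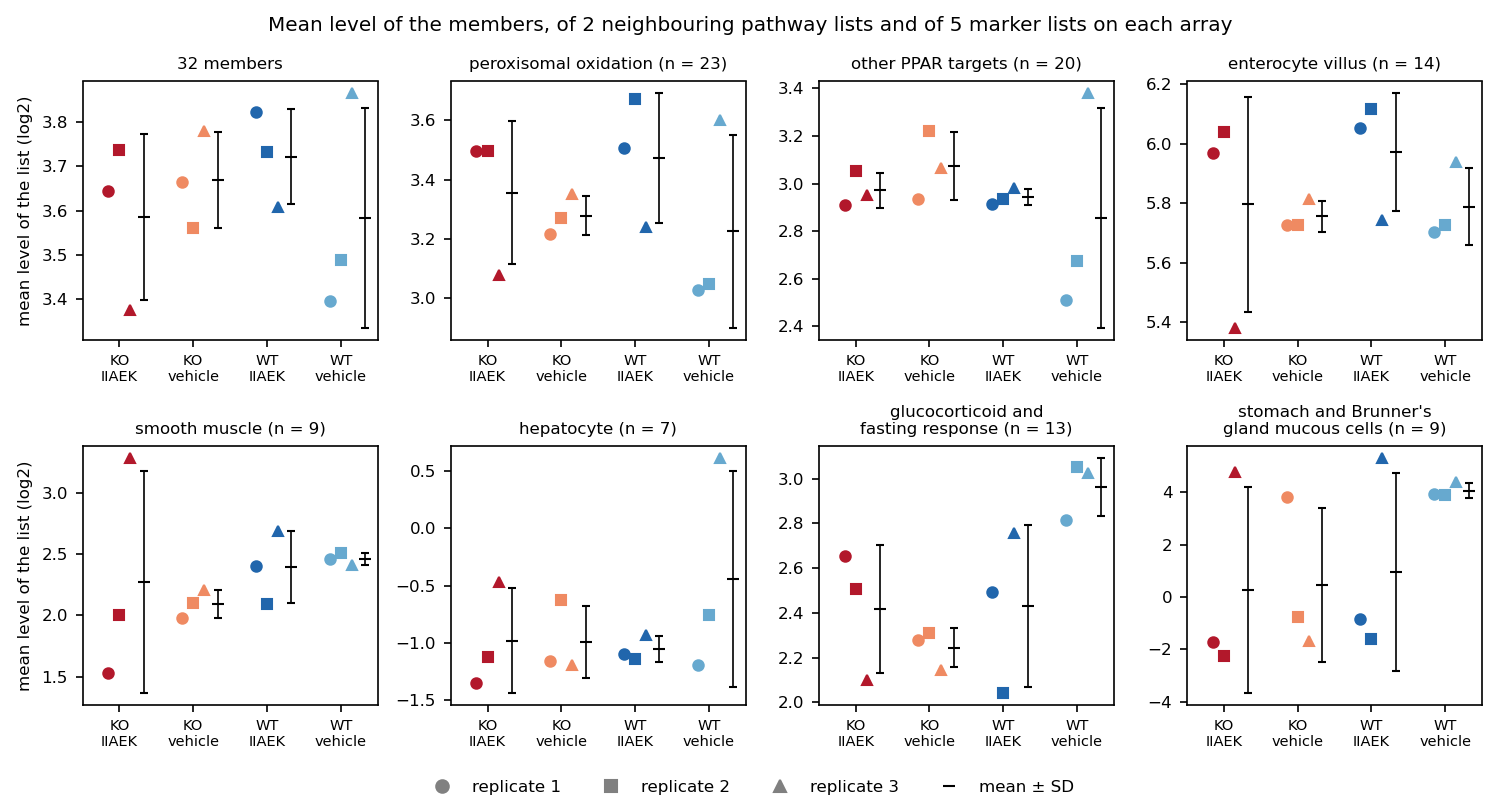
Mean level on each array of the 32 members, of 2 neighbouring pathway lists and of 5 marker lists (log2), with KO groups left of WT groups and IIAEK left of vehicle. Points are arrays by replicate and bars the mean ± SD of 3 arrays. The members, the peroxisomal genes and the other PPAR targets are highest in WT vehicle on replicate 3, the array on which hepatocyte markers averaged 0.61.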

How the data were processed

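Scanner files as deposited come from Feature Extraction 10.7.3.1, per the file headers, and give each spot's processed intensity after background subtraction, with no scaling between arrays. The value table that the authors deposited is in log2 units, and how it was made is not given. Comparison with the scanner values showed log2 processed intensity that had been shifted per array and centred per probe, so scale and direction are known and a probe's level cannot be read from it. Its column medians lay between -0.09 and 0.13, and it served as an alternative.

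Control spots (3671 of 62976) and outlier spots were dropped, leaving 56583 of 56605 probes, of which 32978 got a gene name through their unversioned accession in a RefSeq table of GRCm38.p6. Each array's 75th percentile was subtracted from its log2 processed intensities. Features stayed in if at least 1 group had all 3 of its arrays well above background, with the brightest probe by mean used for each gene, giving 26107 features (15583 named genes). Groups were compared with limma 3.58.1 (1 mean per group over all 12 arrays, intensity trend, Benjamini-Hochberg over all features), in R 4.3.3. The fit was tested on simulated data. No spot was saturated, and 3 arrays a group limit the precision.

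The members and lists were chosen with earlier results of these data known. Values on every array are given for Ppara and for the 3 members with the smallest p in each comparison; Ppard, Pdk4, Cpt1a, Hadha, Hadhb, Acot1 and Acot2 were singled out after their values were seen. In the neighbouring lists, at most the 2 genes with the smallest p in a comparison were eligible. Alternatives were another normalization, background correction, filter, probe rule, slide or replicate block, tissue markers as covariates, and leaving out each array.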

Additional observations from a re-analysis of the deposited data

How the results depend on the processing

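No member was called under any alternative but 1: within slide 2, where 3 of the 4 groups had 1 array and that array is assumed to vary like the pair in KO vehicle, Vnn1 in KO under IIAEK was at -1.71 (adjusted p 0.0249) and 1 member was called. Within slide 1 Vnn1 there was 0.26 and Ehhadh 0.070, both turned in direction, as was the average IIAEK effect on Ppargc1a within slide 2, at -0.086. The median over the members moved, within slides 1 and 2, to 0.32 and -0.29 for IIAEK in WT and to 0.21 and -0.24 on average. It was 0.077 and -0.30 for IIAEK in KO, and 0.21 and -0.13 for KO against WT under vehicle. Leaving out 1 array gave -0.34 to -0.069 for the difference between the genotypes, the lowest without replicate 3 of WT vehicle. Features called within slides 1 and 2 numbered 58 and 255 for IIAEK in KO, 257 and 0 in WT, 250 and 58 on average, 4 and 80 for KO against WT under vehicle, 8 and 14 under IIAEK, and 12 and 49 on average; within slide 2 the difference had 35. For KO against WT on average, 3 were called after normexp correction, and 8 each with the authors' deposited values, the slide as a block and no intensity trend. With tissue covariates 5 were called for KO against WT under IIAEK. Leaving out 1 array gave 0 to 17 called for IIAEK in WT, 0 to 1 for the difference, 2 to 18 for KO against WT under vehicle, 2 to 4 under IIAEK and 2 to 10 on average; the 17, 1 and 18 were without replicate 3 of WT vehicle. The cause was not tested.

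Deviations from the group means correlated at -0.252 to 0.699 between same-numbered arrays. Differently numbered arrays were not compared, so whether replicate numbers pair the samples is not known. With the replicate block the medians could not change (0.11 for IIAEK in WT), as all groups held the same replicate numbers. In that fit 4 features were called for KO against WT on average, and no member was called (smallest adjusted p 0.849). For the 3 members with the smallest p in each comparison, 479 of 483 values under alternatives kept their direction and side of the threshold. Many of these could not turn. The replicate block, the fit with no intensity trend and leaving out an array outside a comparison of 2 groups keep the fold change as it was. The count therefore says little of stability. Cyp4a10 for KO against WT under vehicle, outside that count, turned to -0.44 within slide 2. Probes near background, such as that of Fgf21, give only bounds. Single probes, the set without Fgf21 and its bound without single arrays were alternatives chosen after seeing the data.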
